A study of Mus musculus with 18 samples.

Results

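The cornified envelope and epidermal differentiation genes described here are the genes whose symbol begins with Sprr or Lce followed by a digit, together with Lor, Ivl, Flg, Flg2, Hrnr, Rptn, Tchh, Cst6, Tgm1 and Tgm3. The symbols matched 48 genes among the 52958 gene symbols counted in dermal papilla cells (DP) and 46 among the 27933 counted in hair follicle stem cells (HFSC), where Sprr2c-ps and Sprr2g had no row. By role, the 48 genes are 17 SPRR genes, 21 LCE genes, the main envelope proteins Lor and Ivl, 5 genes for large proteins fused to an S100 domain (Flg, Flg2, Hrnr, Rptn and Tchh), the transglutaminases Tgm1 and Tgm3, and Cst6. Of these, 45 lie on chromosome 3 between positions 92080271 and 93449077 of GRCm38, a stretch of 1.37 Mb known as the epidermal differentiation complex. Tgm1 lies on chromosome 14, Tgm3 on chromosome 2 and Cst6 on chromosome 19 (5344705 to 5349574, minus strand).

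When a keratinocyte leaves the basal layer it ends its life as a flat cell whose membrane is replaced by a shell of cross-linked protein, the cornified envelope. Involucrin (Ivl) is laid down early under the membrane, loricrin (Lor) makes up most of the finished envelope of the epidermis, small proline-rich proteins (SPRR) bridge other envelope proteins, and late cornified envelope (LCE) proteins are added last. Transglutaminases form the cross-links, filaggrin (Flg) and its relatives bundle keratin, trichohyalin (Tchh) is best known from the inner root sheath and medulla of the hair, and the cystatin Cst6 restrains proteases of the cornifying layers and marks the upper hair follicle. Resting bulge stem cells and dermal papilla fibroblasts are not cells in which this programme is known to run to its end.

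The data were RNA-seq profiles of 18 libraries from female mice, 2 for each of 9 groups, made from DP cells (the signalling centre at the follicle base) and HFSC (the cells that regrow the follicle) sorted by flow cytometry. C57BL/6 wild-type mice had a sham operation (Sham) or adrenalectomy (ADX), the removal of the glands that make corticosterone, in both cell types, and HFSC alone had adrenalectomised mice fed corticosterone (ADX+CORT). Mice on a mixed 129/C57BL/6 background were either Pdgfra-CreER; GR fl/fl (GR KO) or wild type (Control), and both of these groups received intraperitoneal tamoxifen over 6 days. The title names the question of how corticosterone holds hair follicle stem cells in quiescence, and the comparisons ask what happens without adrenal hormone, with the hormone given back, and without its receptor GR (gene Nr3c1) in the dermis. The Cre is driven by the promoter of Pdgfra, a gene of dermal mesenchyme, so the deletion is aimed at cells around HFSC rather than at HFSC. Pdgfra itself stood at 151 to 1223 counts-per-million (CPM) in DP libraries and at 0 to 2.76 CPM in HFSC libraries. Because Control mice are labelled wild type, the Cre transgene differs between these groups along with GR. The age and the number of mice behind a library are not given in the sources used here. The labels do not say that the libraries of a group came from separate mice, so p-values measure only the spread between these samples, which may be technical.

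Promoter sequences were available from RefSeq (GRCm38.p6) for 43 of the 48 genes, in 44 windows of 250 bases before the annotated start. Below are the last 150 of those bases, 5′ to 3′ on the gene's own strand, for the genes of the complex that passed a test below (Sprr1a, Sprr4 and Lor), for Ivl, the other main envelope protein, and for Lce1m, the most abundant LCE gene. Capitals mark 2 motifs: TATAAA, the letters of a TATA box, and TGANTCA, the letters bound by AP-1 factors.
Sprr1a, chr3:92485882-92486031, minus strand: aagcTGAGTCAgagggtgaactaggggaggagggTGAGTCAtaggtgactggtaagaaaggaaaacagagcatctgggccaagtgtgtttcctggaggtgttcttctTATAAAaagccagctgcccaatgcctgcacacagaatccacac
Sprr4, chr3:92500494-92500643, minus strand: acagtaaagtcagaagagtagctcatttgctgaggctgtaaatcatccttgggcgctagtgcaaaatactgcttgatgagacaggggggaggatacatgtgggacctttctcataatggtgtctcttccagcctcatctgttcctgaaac
Ivl, chr3:92573736-92573885, minus strand: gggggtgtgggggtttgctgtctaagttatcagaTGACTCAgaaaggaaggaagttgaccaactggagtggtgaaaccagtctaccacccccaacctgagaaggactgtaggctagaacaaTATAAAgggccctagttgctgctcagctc
Lor, chr3:92083143-92083292, minus strand: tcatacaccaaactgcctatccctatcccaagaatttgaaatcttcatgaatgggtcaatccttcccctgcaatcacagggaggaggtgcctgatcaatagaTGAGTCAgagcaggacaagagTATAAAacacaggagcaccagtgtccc
Lce1m, chr3:93019062-93019211, minus strand: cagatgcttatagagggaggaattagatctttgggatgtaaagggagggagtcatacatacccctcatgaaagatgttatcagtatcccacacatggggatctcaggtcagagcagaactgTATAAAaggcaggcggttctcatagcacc

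Each motif was searched on both strands of the 250 bases, and the 2 motifs cannot overlap. The Sprr4 window held neither. TATAAA was found in 20 of the 44 windows (45.5%) and in 12.4% of the 32851 windows of all genes, and TGANTCA was found in 14 of the 44 (31.8%) and in 6.75% of all windows. The families differed: 10 of 14 SPRR windows held TATAAA and 9 of 14 held TGANTCA, against 4 and 0 of 20 LCE windows. The full palindrome of a glucocorticoid response element, AGAACA followed after 3 bases by its reverse complement TGTTCT, was found in 0 of the 44 windows and in 3 of all 32851. A match describes letters and is no measurement of binding, and the absence of a match says only that these letters are not in the window.

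Total counts were 6194415 to 13941628 in DP libraries and 14067139 to 33014976 in HFSC libraries. Reads were counted per transcript in DP and per gene in HFSC, so levels are never compared between them. The deletion was visible in DP, where Nr3c1 stood at 671 and 978 CPM in Control and at 137 and 111 CPM in GR KO. In HFSC Nr3c1 stood at 258 and 338 CPM in Control and at 243 and 170 CPM in GR KO. That was lower without overlap (log2 fold change -0.53), and whether GR was also deleted in HFSC was not tested. The summed level of 13 dermal papilla markers was 2221 to 5274 CPM in DP libraries and 101 to 356 CPM in HFSC libraries, and 9 stem cell markers summed to 19310 to 45610 CPM in HFSC libraries. DP libraries were not free of epithelial RNA: 10 genes of basal and follicle keratinocytes summed to 24.0 to 1983 CPM across them, with none of the 10 at 0 in every library. The 7 immune cell markers summed to 42.2 to 154 CPM in the surgery groups of HFSC and to 2134 to 2610 CPM in Control and GR KO HFSC, and in DP GR KO library 1 stood apart at 2444 CPM, against 29.2 to 302 CPM in the other 7 libraries. In bulk samples like these, fewer cells of a type and less RNA per cell cannot be told apart.

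Part of the set had no count in any library. In DP 37 of the 48 genes had a count in some library and 17 passed the filter on low counts and were tested. In HFSC 36 of 46 had a count and 27 were tested. Over all genes, 23463 of 52958 were tested in DP and 15231 of 27933 in HFSC. Single DP libraries held a count for 20.8% to 56.2% of the set, against 46.3% to 63.5% of all genes. In HFSC libraries these shares were 37% to 60.9%, against 54.7% to 57.9% of all genes. The untested genes were mostly SPRR and LCE genes: 13 of 17 SPRR and 16 of 21 LCE genes in DP, and 11 of 15 and 8 of 21 in HFSC. Rptn and Tgm3 were untested in DP alone, at 0 to 1.26 CPM and 0.117 to 0.958 CPM. Lce3a, Lce3b, Lce3e and Lce3f were at 0 in every library of both cell types. Since the filter keeps a gene that is high in a single group, counts over the tested genes describe those genes and not the whole set.

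Per kilobase of exon, Cst6 had the highest mean in HFSC, at 275 CPM per kb, and was above every other gene of the set in 9 of the 10 libraries. Sprr1a came next, at 102 CPM per kb and below Cst6 in all 10, followed by Lce1m (42.3), Ivl (37.1), Sprr4 (23.3) and Lor (20.7 CPM per kb). In DP the sizes of the means, and the place of Sprr4 above Ivl, rested on Control library 1, where Cst6 stood at 304.5 and Sprr4 at 159 CPM per kb. With that library the DP means were 51.6 for Cst6, 31.6 for Sprr1a, 26.0 for Sprr4, 8.93 for Ivl, 8.46 for Lor and 6.42 CPM per kb for Lce1m, and without it they were 15.5, 11.4, 7.02, 9.23, 6.17 and 5.64 CPM per kb. Cst6 was above Sprr1a in 6 of the 8 DP libraries; in both Sham libraries it was below Sprr1a and below Ivl. Counts of Sprr2, Lce1 and Lce3 genes are uncertain, because reads can fit several copies: 96.5% of the 50-base stretches of Sprr2a2 also occur in another gene of the set, with a median of 39.7% over the 6 Lce3 genes and 19.4% over the 14 Lce1 genes. Cst6, Lor, Ivl, Lce1m, Sprr1a and Sprr4 share no such stretch.

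After dermal GR deletion, HFSC held more Sprr1a and Cst6 RNA and less Lor RNA than control HFSC. These 3 of the 27 tested genes passed the threshold (edgeR's quasi-likelihood test, Benjamini-Hochberg adjustment over all genes, 0.05), 2 higher and 1 lower, while 0.985% of all 15231 genes tested were called, 0.67% higher and 0.315% lower. Genes of the same envelope thus moved in opposite directions in these libraries. DESeq2 called 7 of the 27, against 4.91% of all genes.

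Sprr1a, a bridging protein of the envelope that is low in resting epithelium, stood at 40.4 and 58.4 CPM in Control HFSC and at 281 and 195 CPM in GR KO HFSC. Both GR KO libraries lay far above both controls, 238 ± 60.9 CPM against 49.4 ± 12.8 CPM (SD, n = 2). The gene rose by 2.27 on the log2 scale (SE 0.27, edgeR adjusted p = 0.0162) and was called under every alternative that was run, with an adjusted p of at most 0.0392 in edgeR or DESeq2. Sprr4, a further SPRR gene, stood at 3.53 and 3.43 CPM in Control and at 13.2 and 9.47 CPM in GR KO, also without overlap, but did not pass (log2 fold change 1.70, SE 0.52, edgeR adjusted p = 0.156). All 7 SPRR genes with a count in these libraries had a higher mean in GR KO, where 51% of all genes with a count did. Besides Sprr1a and Sprr4 their levels were low. Sprr2a3, whose reads can fit other copies, stood at 1.33 and 0 CPM in Control and at 2.55 and 1.12 CPM in GR KO. Sprr1b stood at 0 and 0.533 CPM and at 0.910 and 0 CPM. Sprr2a1 and Sprr2b had 2 counts each, in a single GR KO library. Sprr2h had 2 counts in Control library 2 and 10 in GR KO library 1. Of the 7 only Sprr1a and Sprr4 did not overlap between the groups.

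Cst6 stood at 728 and 1098 CPM in Control HFSC and at 4211 and 2309 CPM in GR KO HFSC. Groups did not overlap, at 913 ± 262 CPM and 3260 ± 1345 CPM (SD, n = 2), and the gene rose by 1.84 (SE 0.33, edgeR adjusted p = 0.0327). The call depended on the controls: without Control library 1 the edgeR adjusted p was 0.106, without Control library 2 it was 0.151, and with no surgery libraries in the fit it was 0.0617. Krt79, a keratin of the upper follicle that is outside the set, went from 499 and 501 CPM to 3117 and 1848 CPM. It rose by 2.31 (SE 0.44, edgeR adjusted p = 0.0367). The 8 upper follicle and sebaceous gland markers other than Cst6, none of them at 0 in every library, summed to 1056 and 1069 CPM in Control and to 4074 and 2370 CPM in GR KO. Krt79 made up most of the GR KO sums. With Cst6 counted, 8 of the 9 markers were higher, 4 of them without overlap, and 1 was lower. The edgeR test called 2 of the 9, Cst6 and Krt79. The 9 stem cell markers summed to 41890 and 45260 CPM in Control and to 20440 and 25110 CPM in GR KO. Most of that sum was Krt15, at 31410 and 36210 CPM in Control and at 14840 and 20860 CPM in GR KO. Of the 9 markers 6 were lower, 3 of them without overlap, and 3 were higher, with a median log2 fold change of -0.24. The edgeR test called 1 of the 9, lower. The part of these shifts in the results for Cst6, Sprr1a and the other envelope genes was not tested.

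Loricrin went the other way. Lor stood at 17.4 and 39.0 CPM in Control HFSC and at 8.10 and 7.25 CPM in GR KO HFSC, so both GR KO libraries lay below both controls while the controls differed 2.25-fold from each other. The gene fell by 1.88 (SE 0.37, edgeR adjusted p = 0.0384). This call was lost without Control library 2, when the log2 fold change was -1.18 (edgeR adjusted p = 0.227), without GR KO library 1 (edgeR adjusted p = 0.0529), without GR KO library 2 (edgeR adjusted p = 0.123) and with no surgery libraries in the fit (edgeR adjusted p = 0.0815). Involucrin, its partner in the envelope, stood at 23.6 and 33.9 CPM in Control and at 105 and 60.4 CPM in GR KO. Its libraries did not overlap either, in the upward direction, and it did not pass (log2 fold change 1.52, SE 0.39, edgeR adjusted p = 0.0874).

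LCE genes were low in GR KO HFSC. Lce1m, the most abundant, stood at 21.0 and 57.8 CPM in Control and at 2.46 and 6.69 CPM in GR KO. Both GR KO libraries were below both controls, yet the gene did not pass (log2 fold change -3.12, SE 0.72, edgeR adjusted p = 0.0608); it did with no surgery libraries in the fit (edgeR adjusted p = 0.0273). Lce1a2 stood at 3.27 and 8.32 CPM in Control and at 0.364 and 0 CPM in GR KO, and Lce1c at 2.35 and 4.99 CPM and at 0.273 and 0.334 CPM. Lce1l had 132 counts over both Control libraries and 0 over both GR KO libraries, at least 35.4-fold lower, taking 3 counts over the group as the most that a 0 allows. The same bound was at least 9.12-fold for Lce1b, 6.44-fold for Lce1f and 4.83-fold for Lce1e, of which Lce1f and Lce1e also had 0 counts in Control library 2, with 24 and 18 in Control library 1. Of the 14 LCE genes with a count in these libraries, 13 had a lower mean in GR KO, against 49% of all genes, and 6 of the 13 tested did not overlap in that direction, where 19.1% of all genes tested did. The edgeR test called 0 of the 13, with 4 at an unadjusted p under 0.05, and DESeq2 called 2, Lce1l (DESeq2 adjusted p = 0.00896) and Lce1m (DESeq2 adjusted p = 0.0226).

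Filaggrin and its relatives did not pass in this comparison. Flg stood at 2.56 and 3.995 CPM in Control HFSC and at 3.82 and 2.34 CPM in GR KO HFSC, Flg2 at 4.803 and 10.4 CPM and at 4.82 and 1.56 CPM, and Hrnr at 4.803 and 3.66 CPM and at 4.28 and 1.56 CPM. All 3 overlapped between the groups. Tchh stood at 2.56 and 2.80 CPM in Control and at 3.55 and 6.02 CPM in GR KO (log2 fold change 0.83, SE 0.56, edgeR adjusted p = 0.586). Tgm1, which cross-links envelopes at the keratinocyte membrane, stood at 5.67 and 5.39 CPM in Control and at 10.2 and 3.34 CPM in GR KO. Tgm3, which acts in the follicle and the upper epidermis, had 0 counts in Control and 25 in GR KO, at least 10.4-fold higher (edgeR adjusted p = 0.252). Over the 27 tested genes 10 were higher and 16 lower, with a median log2 fold change of -1.24. The median was -0.61 when the 6 genes at 0 in a group stood at their bound and 3 with too few counts were left out. Over all genes tested the median was 0.005. Without overlap 6 of the 27 were higher and 7 lower, against 19.3% and 19.1% of all genes tested.

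**Figure D1:**
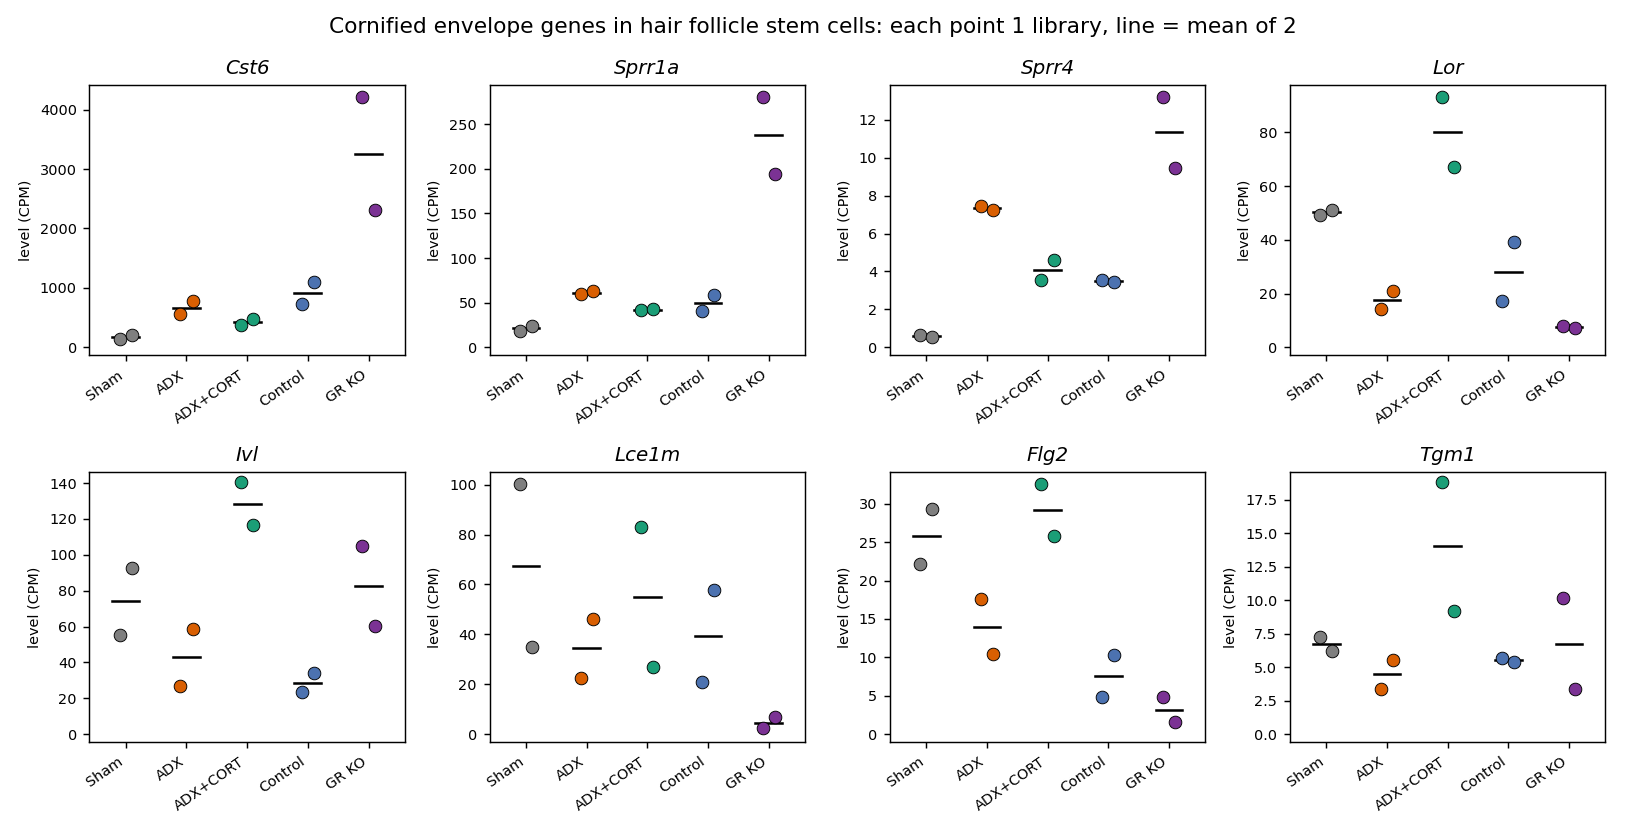
Level in CPM (vertical axes, linear) of 8 cornified envelope genes in the 5 HFSC groups; each point is 1 library and each line the mean of 2. Cst6, Sprr1a and Sprr4 are lowest in Sham and highest in GR KO, Lor and Ivl are highest in ADX+CORT, and Lce1m differs widely between the 2 libraries of a group.

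Adrenalectomy went with more Sprr4, Cst6 and Sprr1a RNA in HFSC. These 3 of 27 tested genes were called, all higher, when 0.295% of all genes were called (0.282% higher); DESeq2 called 4 of the 27 (the same 3 and Lor) and 6.04% of all genes. Sprr4 stood at 0.646 and 0.565 CPM in Sham HFSC and at 7.45 and 7.25 CPM in ADX HFSC. Sham libraries were close to each other and so were ADX libraries, and the gene rose by 3.58 on the log2 scale (SE 0.58, edgeR adjusted p = 0.0393). Cst6 stood at 144 and 205 CPM in Sham and at 553 and 774 CPM in ADX, a rise of 1.93 (SE 0.34, edgeR adjusted p = 0.0393). Sprr1a stood at 18.4 and 24.3 CPM in Sham and at 59.6 and 62.8 CPM in ADX, a rise of 1.52 (SE 0.27, edgeR adjusted p = 0.0393). None of these genes overlapped between the groups.

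The 3 calls were close to the threshold and each was lost when certain libraries were left out. Without Sham library 1 the edgeR adjusted p was 0.270 for Cst6, 0.316 for Sprr1a and 0.205 for Sprr4; without Sham library 2 it was 0.104, 0.134 and 0.154, and without ADX library 1 it was 0.0730, 0.125 and 0.106. Without ADX library 2 all 3 were called. All 7 SPRR genes with a count in these libraries had a higher mean after adrenalectomy, against 49.8% of all genes. Of these only Sprr1a and Sprr4 did not overlap between the groups. Sprr2d, Sprr2h and Sprr2i had 18, 10 and 16 counts in ADX library 1 and 0 in ADX library 2. The 8 upper follicle and sebaceous gland markers other than Cst6 summed to 361 and 473 CPM in Sham and to 619 and 913 CPM in ADX, and the 9 stem cell markers to 40540 and 45610 CPM and to 19310 and 27780 CPM. The part of those shifts in the rise of Cst6 and the SPRR genes was not tested.

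The main envelope proteins were not among the calls. Lor stood at 49.3 and 51.0 CPM in Sham HFSC and at 14.2 and 21.1 CPM in ADX HFSC, without overlap (log2 fold change -1.51, SE 0.36, edgeR adjusted p = 0.0882). With the other HFSC groups left out of the fit it was called (edgeR adjusted p = 0.0471). Ivl stood at 55.3 and 92.7 CPM in Sham and at 26.8 and 58.9 CPM in ADX, so its groups overlapped (log2 fold change -0.79, SE 0.39, edgeR adjusted p = 0.357). Flg stood at 4.93 and 6.64 CPM and at 4.22 and 2.81 CPM, Flg2 at 22.2 and 29.4 CPM and at 17.6 and 10.4 CPM, and Hrnr at 8.11 and 5.93 CPM and at 5.77 and 2.34 CPM, and all 3 were lower in both ADX libraries without passing. Tgm1 stood at 7.28 and 6.22 CPM in Sham and at 3.38 and 5.56 CPM in ADX, Tchh at 7.05 and 18.4 CPM and at 11.4 and 6.32 CPM, and Tgm3 at 0.705 and 3.11 CPM and at 1.97 and 2.40 CPM. Of the tested genes 13 were higher and 14 lower, with a median of -0.52, where the median over all genes tested was 0. Without overlap 4 of the 27 were higher and 6 lower, against 25.5% and 23.9% of all genes tested. Sprr1b stood at 0.587 and 1.13 CPM in Sham and at 2.39 and 0.936 CPM in ADX.

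With corticosterone given back, no envelope gene passed the test against adrenalectomy alone, and Lor and Ivl had the smallest p-values. Between these groups edgeR called 0 of the 27 tested genes and 0% of all genes; 3 of the 27 and 19.3% of all genes had an unadjusted p under 0.05, and DESeq2 called 2 of the 27, Lor and Ivl, and 9.53% of all genes. Lor stood at 93.3 and 67.2 CPM in ADX+CORT, above both ADX libraries and both Sham libraries (log2 fold change against ADX 2.18, SE 0.37, edgeR adjusted p = 0.0573). Ivl stood at 141 and 116 CPM in ADX+CORT, again above all 4 libraries of the other surgery groups (log2 fold change against ADX 1.58, SE 0.39, edgeR adjusted p = 0.0691). Without ADX library 2 both were called, with an edgeR adjusted p of 0.0203 for Lor and 0.0218 for Ivl. Tgm1 stood at 18.8 and 9.23 CPM in ADX+CORT, above both ADX libraries (log2 fold change 1.65, SE 0.59, edgeR adjusted p = 0.150).

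Sprr1a, Sprr4 and Cst6 stood between Sham and ADX in both ADX+CORT libraries. Sprr1a stood at 41.3 and 42.4 CPM there, below both ADX and above both Sham libraries (log2 fold change against ADX -0.55, SE 0.26, edgeR adjusted p = 0.265). Cst6 stood at 382 and 474 CPM (log2 fold change against ADX -0.63, SE 0.33, edgeR adjusted p = 0.309), and Sprr4 at 3.56 and 4.62 CPM (-0.85, SE 0.51, edgeR adjusted p = 0.395). Flg stood at 8.70 and 5.76 CPM, Flg2 at 32.6 and 25.8 CPM and Hrnr at 9.87 and 6.46 CPM in ADX+CORT, each above both ADX libraries with log2 fold changes of 1.04, 1.06 and 1.01 that did not pass. Tchh stood at 7.003 and 7.38 CPM and Sprr1b at 0.212 and 1.30 CPM, overlapping the ADX libraries, and Tgm3 stood at 0.743 and 0 CPM, below both. In this comparison 16 of the 27 tested genes were higher and 11 lower, with a median of 0.15 against 0.002 for all genes tested. Without overlap 6 of the 27 were higher and 5 lower, against 26.7% and 25.8% of all genes tested.

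Against Sham, edgeR called 0 of 27 in ADX+CORT and 0% of all genes; 3 of the 27 and 6.09% of all genes had an unadjusted p under 0.05, and DESeq2 called 2 of the 27, Cst6 and Sprr4, and 0.438% of all genes. The smallest p-values were those of Sprr4 (log2 fold change 2.74, SE 0.57, edgeR adjusted p = 0.295), Cst6 (1.30, SE 0.33, edgeR adjusted p = 0.476), Sprr1a (0.97, SE 0.26, edgeR adjusted p = 0.547) and Ivl (0.80, SE 0.38, edgeR adjusted p = 0.818). Lor was 0.68 higher (SE 0.35, edgeR adjusted p = 0.838). Of the tested genes 19 were higher and 8 lower, with a median of 0.32 against 0.008 for all genes. Without overlap 7 of the 27 were higher and 1 lower, against 21.5% and 19.1% of all genes tested. The 3 comparisons among Sham, ADX and ADX+CORT share libraries, so their values stand side by side and are not independent of each other. Upper follicle and sebaceous gland markers without Cst6 summed to 737 and 998 CPM in ADX+CORT, overlapping the ADX libraries, and stem cell markers to 41760 and 38400 CPM, 1 inside and 1 just below the Sham range.

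LCE genes differed widely between the 2 libraries of each surgery group in HFSC. Lce1m stood at 100 and 34.8 CPM in Sham HFSC, at 22.6 and 46.1 CPM in ADX and at 83.0 and 26.9 CPM in ADX+CORT, so all 3 groups overlapped. Lce1a2 stood at 18.9 and 2.26 CPM in Sham, at 0.141 and 5.50 CPM in ADX and at 15.0 and 0.326 CPM in ADX+CORT. Lce1c stood at 8.34 and 1.27 CPM, at 0.141 and 4.797 CPM and at 10.7 and 0.326 CPM. Within a group the LCE genes went together: in Sham 12 of the 13 other LCE genes with a count were higher in library 1, where Lce1m was 2.89-fold higher, in ADX 11 of 13 were higher in library 2, where Lce1m was 2.04-fold higher, and in ADX+CORT 12 of 14 were higher in library 1, where Lce1m was 3.08-fold higher. Some of these genes had few counts, such as 1 for Lce1j, 2 for Lce1k and 4 for Lce1e in Sham library 1. Reads of Lce1 and Lce3 genes can fit several copies, so these genes are not separate observations. The share of all genes higher in the same library was not counted. The median ratio between the 2 libraries over all genes above 1 CPM was 1.19 in Sham, 1.25 in ADX and 1.21 in ADX+CORT. The ratios for loricrin were 1.03, 1.48 and 1.39 and those for Sprr1a 1.32, 1.05 and 1.03, all below those of Lce1m, while Ivl had 1.68, 2.20 and 1.21, above Lce1m in ADX. In Control and GR KO HFSC 7 of 13 and 1 of 4 other LCE genes were higher in the library with more Lce1m. What separates the 2 libraries of a group is not given in the labels.

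**Figure D2:**
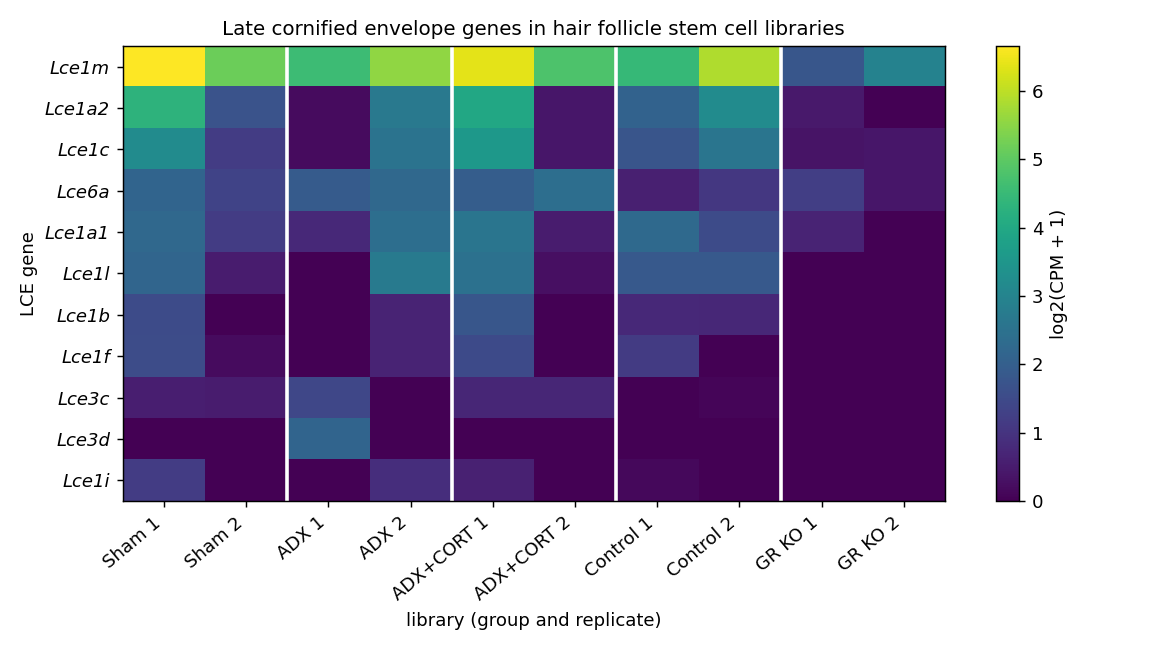
Heat map of log2(CPM + 1) for the 11 LCE genes that exceed 1 CPM in some HFSC library (rows, most abundant on top) in each of the 10 HFSC libraries (columns, 2 per group, with white lines between groups). Sham 1, ADX 2 and ADX+CORT 1 are brighter than the other library of their group over most rows, and both GR KO libraries are the darkest for Lce1m.

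In DP, Lor, Cst6 and Sprr4 fell after dermal GR deletion, and most other tested envelope genes had lower values that did not pass. The edgeR test called 3 of the 17 tested genes, all lower, when 1.54% of all 23463 genes were called (0.771% lower); DESeq2 called 8 of 17, against 8.01% of all genes. Of the tested genes 15 were lower, and 14 had both GR KO libraries below both Control libraries, as 20% of all genes tested had. The median log2 fold change of the tested genes was -5.72, or -3.89 when the 4 genes at 0 in a group stand at their bound and 1 with too few counts is left out; over all genes tested it was 0.17. Over the 31 genes of the set with a count in these libraries, 24 had a lower mean in GR KO, against 41.7% of all genes with a count.

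Lor had 43.6 and 22.5 CPM in Control DP and 0.731 and 0.317 CPM in GR KO DP. All GR KO values were below 1 CPM, and the gene fell by 5.95 on the log2 scale (SE 0.68, edgeR adjusted p = 0.0165). It passed under every alternative that was run, with an adjusted p of at most 0.0427. Cst6 stood at 1245 and 251 CPM in Control and at 18.8 and 2.14 CPM in GR KO, and it fell by 6.16 (SE 1.07, edgeR adjusted p = 0.0344). It missed the threshold when Sham and ADX libraries were left out of the fit (edgeR adjusted p = 0.0800). Sprr4 stood at 36.7 and 6.88 CPM in Control and at 0.244 and 0 CPM in GR KO. That is a ratio of 191 between the groups, with a 95% interval of 65.2 to 931 that covers counting error only. It fell by 7.37 (SE 1.43, edgeR adjusted p = 0.0423), a call that was lost whichever library was left out, with edgeR adjusted p-values of 0.214 and 0.0703 without Control libraries 1 and 2 and of 0.0517 and 0.108 without GR KO libraries 1 and 2.

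Sprr1a had 140 and 23.8 CPM in Control DP and 3.004 and 0.0793 CPM in GR KO DP, without overlap and without passing (log2 fold change -5.72, SE 1.32, edgeR adjusted p = 0.0672). For Cst6, Sprr1a and Sprr4, Control library 1 was 4.96-fold, 5.87-fold and 5.34-fold above Control library 2, a ratio whose median over all genes above 1 CPM was 1.25. Sprr2a2 stood at 5.28 and 0.930 CPM in Control and at 8.61 and 0.238 CPM in GR KO, with no direction. Lce1m stood at 11.3 and 15.8 CPM in Control and at 0.487 and 0 CPM in GR KO (log2 fold change -5.74, SE 1.504, edgeR adjusted p = 0.0960). Lce1a2 stood at 3.39 and 2.32 CPM and Lce1c at 2.84 and 0.930 CPM in Control, and both had 0 counts in GR KO, at least 24.1-fold and 16.3-fold lower. In all, 13 of 13 LCE genes with a count in these libraries had a lower mean in GR KO, against 41.7% of all genes. Several of them had at most 4 counts over both Control libraries. Of the 21 LCE genes, 11 and 7 had a count in the Control libraries and 1 and 0 in the GR KO libraries. Over all genes 47% and 46.3% had a count in Control and 49.7% and 50.1% in GR KO. The 2 Sham libraries also differed, with 11 and 3 LCE genes.

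Ivl had 13.2 and 7.25 CPM in Control DP and 2.76 and 0.793 CPM in GR KO DP, again without overlap (log2 fold change -2.52, SE 0.81, edgeR adjusted p = 0.164). Flg2 stood at 5.12 and 9.30 CPM and at 1.06 and 0 CPM (-3.75, SE 1.20, edgeR adjusted p = 0.161), and Hrnr at 5.12 and 5.30 CPM and at 0.487 and 0 CPM (-4.36, SE 1.35, edgeR adjusted p = 0.150). These 3 genes, with Lce1m and Sprr1a, were among the 8 that DESeq2 called. Flg stood at 2.21 and 1.49 CPM in Control and at 0.731 and 0.159 CPM in GR KO, Tgm1 at 7.17 and 2.98 CPM and at 2.19 and 0.793 CPM, Tgm3 at 0.315 and 0.186 CPM and at 0.487 and 0.159 CPM, and Tchh at 1.26 and 1.77 CPM and at 0.568 and 1.43 CPM. The trichohyalin and Tgm3 groups overlapped.

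Cell type markers were measured beside these genes. The 10 basal and follicle keratinocyte markers added up to 1388 and 408 CPM in Control DP and to 715 and 24.0 CPM in GR KO DP, so their groups overlapped; edgeR called 0 of the 10, with 2 at an unadjusted p under 0.05, and DESeq2 called 1. The 8 upper follicle and sebaceous gland markers other than Cst6 summed to 978 and 542 CPM in Control and to 583 and 321 CPM in GR KO. Krt79 stood at 529 and 72.1 CPM in Control and at 26.8 and 4.60 CPM in GR KO (log2 fold change -4.26, SE 0.9995, edgeR adjusted p = 0.0699), with the excess of Control library 1 that Cst6 and Sprr1a also showed. The sum of the 9 stem cell markers went the other way, from 873 and 773 CPM in Control to 3248 and 4348 CPM in GR KO. Of the 8 tested 6 were higher, and edgeR called 2 of them. Most of that sum in GR KO came from 2 genes, Postn and Cd34. Postn went from 267 and 411 CPM to 1898 and 3103 CPM, and Cd34 from 275 and 152.5 CPM to 947 and 943 CPM. Krt15, the keratin of the list, went from 97.7 and 21.2 CPM to 73.2 and 0.396 CPM, with overlap. Fibroblast markers summed to 24840 and 15810 CPM in Control and to 65680 and 75830 CPM in GR KO. The part of these shifts in the fall of Lor, Cst6 and Sprr4 in DP was not tested.

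**Figure D3:**
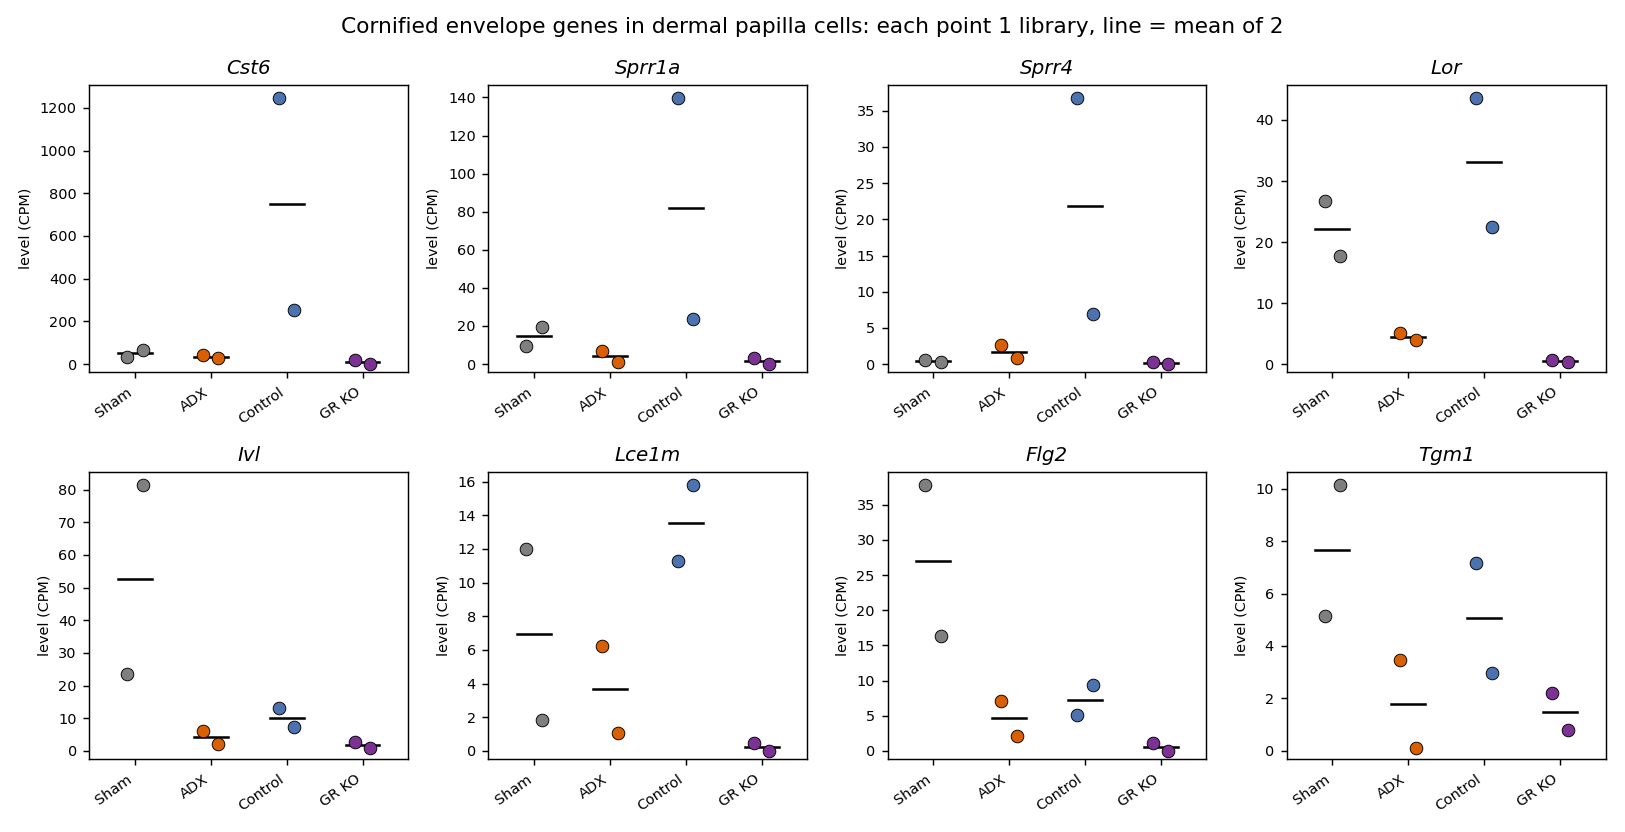
Level in CPM (vertical axes, linear) of 8 cornified envelope genes in the 4 DP groups; each point is 1 library and each line the mean of 2. GR KO libraries are at or near the bottom of every panel, Cst6, Sprr1a and Sprr4 are highest in Control library 1, and Ivl and Flg2 are highest in Sham.

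After adrenalectomy no envelope gene passed the test in DP. By edgeR 0 of the 17 tested genes and 0.017% of all genes were called, 3 of 17 and 11.7% of all genes had an unadjusted p under 0.05, and DESeq2 called 2 of 17, Ivl and Lor, and 2.5% of all genes. Ivl stood at 23.5 and 81.5 CPM in Sham DP and at 6.12 and 2.23 CPM in ADX DP, and all ADX values were below all Sham values (log2 fold change -3.66, SE 0.83, edgeR adjusted p = 0.201). Lor stood at 26.7 and 17.6 CPM in Sham and at 5.14 and 3.87 CPM in ADX, also without overlap (-2.30, SE 0.56, edgeR adjusted p = 0.229). Flg2 stood at 37.8 and 16.3 CPM and at 7.09 and 2.11 CPM (-2.56, SE 1.08, edgeR adjusted p = 0.399), while Hrnr, at 4.18 and 24.9 CPM and at 1.53 and 4.92 CPM, overlapped (-2.16, SE 1.16, edgeR adjusted p = 0.506). Sprr1a stood at 9.67 and 19.4 CPM in Sham and at 6.81 and 1.29 CPM in ADX, Tgm1 at 5.14 and 10.2 CPM and at 3.47 and 0.117 CPM, and both were lower in ADX in every library.

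The other DP genes had no single direction after adrenalectomy. Cst6 stood at 34.6 and 66.0 CPM in Sham DP and at 43.2 and 27.4 CPM in ADX DP, with overlap. Sprr4 stood at 0.523 and 0.242 CPM in Sham and at 2.64 and 0.820 CPM in ADX, and Sprr2a2 at 0.784 and 3.38 CPM and at 5.70 and 4.57 CPM, so these were the 2 of 17 tested genes whose ADX libraries both lay above both Sham libraries, as 23.9% of all genes did. Flg stood at 2.00 and 4.03 CPM and at 4.73 and 2.93 CPM, Tchh at 1.66 and 2.09 CPM and at 1.25 and 2.23 CPM, and Tgm3 at 0.958 and 0.403 CPM and at 0.278 and 0.117 CPM. Lce1m stood at 12.02 and 1.85 CPM in Sham and at 6.25 and 1.06 CPM in ADX, Lce1a2 at 3.49 and 0.161 CPM and at 0.278 and 1.17 CPM, and Lce1c at 2.44 and 0 CPM and at 2.22 and 1.06 CPM. In Sham DP all 10 other LCE genes with a count were higher in library 1, in which Lce1m was 6.49-fold higher, against 6 of 10 in the ADX library and 2 of 12 in the Control library with more Lce1m. Some of these LCE genes had few counts, such as 2 for Lce1d and 1 for Lce1l in Sham DP library 1. Of the 17 tested genes 5 were higher and 12 lower, with a median of -0.93 against 0.08 for all genes. Without overlap 5 of the 17 were lower, against 19.4% of all genes tested. The 10 basal and follicle keratinocyte markers summed to 591 and 1983 CPM in Sham and to 303 and 180 CPM in ADX. The 5 pericyte and smooth muscle markers summed to 146 and 257 CPM in Sham and to 5267 and 809 CPM in ADX, with all 5 higher at a median log2 fold change of 3.75; edgeR called 0 of them, with 5 at an unadjusted p under 0.05, and DESeq2 called 2. The part of these shifts in the lower values of Ivl and Lor was not tested.

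The effects of adrenalectomy and of GR deletion in DP were set against each other in 1 model. The edgeR test called 0 of the 17 genes for this difference, when 0.477% of all genes were called; 7 of the 17 and 15.3% of all genes had an unadjusted p under 0.05, and DESeq2 called 4 of the 17, Cst6, Lce1m, Lor and Sprr4, and 6.43% of all genes. The largest differences among the genes with the smallest p-values were 9.51 for Sprr4 (SE 1.84, edgeR adjusted p = 0.0572), 5.64 for Cst6 (SE 1.30, edgeR adjusted p = 0.0750) and 3.66 for Lor (SE 0.82, edgeR adjusted p = 0.0726), and a positive sign means that the change after deletion was the more negative of the 2. For Ivl the difference was -1.14 (SE 1.10, edgeR adjusted p = 0.704). Without GR KO library 1, Cst6 and Sprr4 were called. Mouse strain and tamoxifen differ between the 2 experiments together with the treatment and cannot be told apart from it in this difference.

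**Figure D4:**
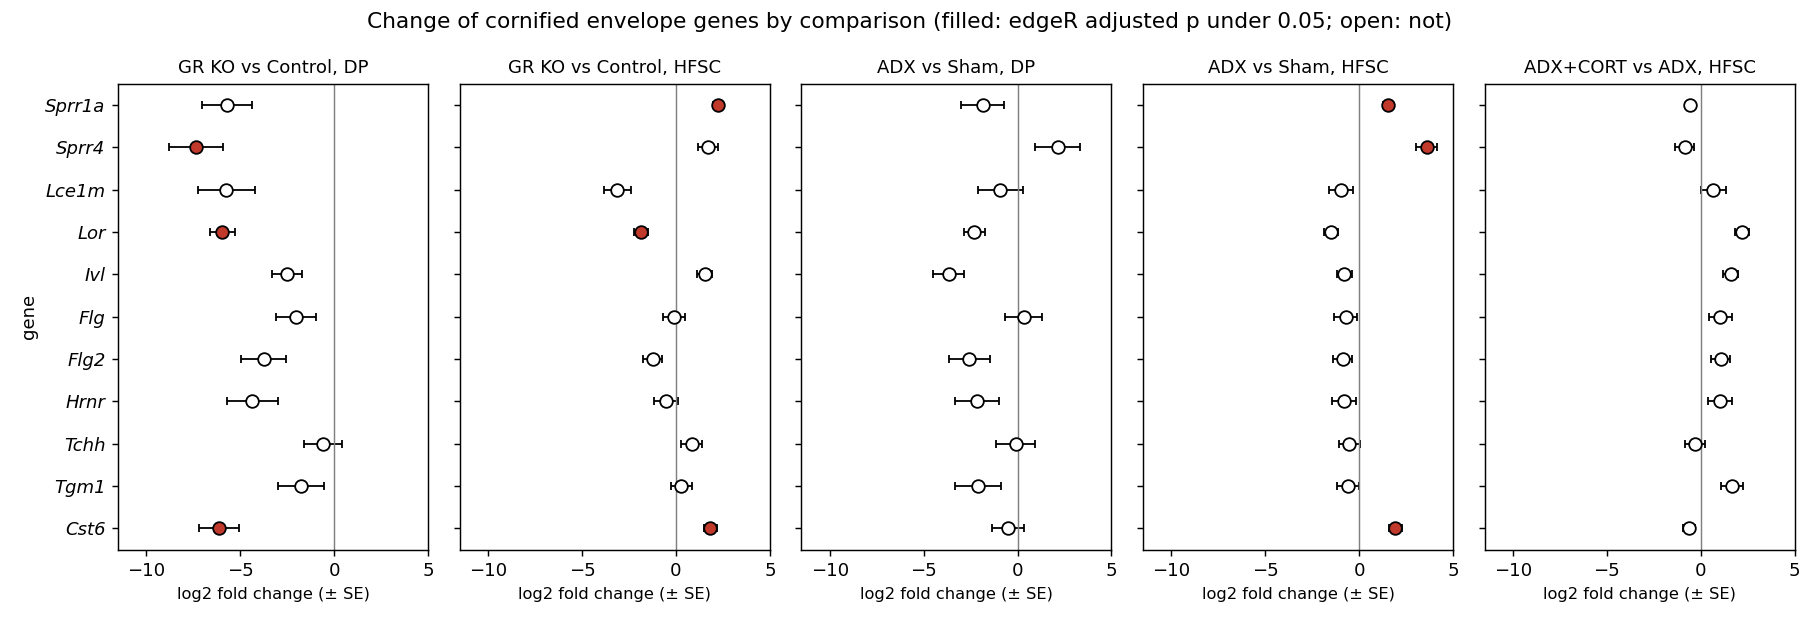
Log2 fold change with its standard error (horizontal axes) of 11 cornified envelope genes in 5 comparisons; filled points passed edgeR's test at an adjusted p under 0.05 and open points did not. Sprr1a, Sprr4 and Cst6 lie to the left of 0 in DP and to the right in HFSC after GR deletion, and Lor lies to the left in both.

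Genes that act beside the envelope proteins were taken from lists outside the naming rule. Of 26 tested spinous and granular layer genes in HFSC, 2 rose and 0 fell after dermal GR deletion. These were Casp14, the protease that processes filaggrin, with a mean of 11.03 CPM in Control and 53.6 CPM in GR KO (log2 fold change 2.28, SE 0.29, edgeR adjusted p = 0.0162), and Klk7, a peptidase of the cornified layer, with means of 76.7 and 354 CPM (2.21, SE 0.39, edgeR adjusted p = 0.0327). In total 17 of the 26 were higher, with a median of 0.55, where 7677 of all 15231 genes tested were higher with a median of 0.005. An unadjusted p under 0.05 was found for 14 of the 26 and for 13.1% of all genes, and DESeq2 called 9 of the 26 and 4.91% of all genes. Among 24 regulators of epidermal differentiation Grhl1, a grainyhead factor of epidermal differentiation, rose by 1.15 (SE 0.24, edgeR adjusted p = 0.0425), with 0 falling; 13 of the 24 had an unadjusted p under 0.05 and DESeq2 called 6. Of 11 inner root sheath and medulla genes Cux1 rose by 2.31 (edgeR adjusted p = 0.0281). There 4 of the 11 had an unadjusted edgeR p under 0.05, and DESeq2 called 1. Of 13 S100 genes S100a4 fell by 1.44 (edgeR adjusted p = 0.0327). In that list 11 genes were lower and 2 higher, 6 and 2 of them without overlap. An unadjusted edgeR p under 0.05 was found for 7 of the 13, against 13.1% of all genes, and DESeq2 called 2. Of the 14 lipid barrier genes edgeR called 0, with 2 at an unadjusted p under 0.05, and DESeq2 called 1; of the 11 wound and stress genes edgeR called 0, with 3 at an unadjusted p under 0.05, and DESeq2 called 0.

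The same lists gave few calls elsewhere. After adrenalectomy in HFSC 0 of 26 spinous and granular genes passed (3 at an unadjusted edgeR p under 0.05, as for 15.2% of all genes, and 2 by DESeq2, which called 6.04% of all genes), while Hbegf, a wound-induced growth factor, rose by 2.10 (edgeR adjusted p = 0.0231), the Notch target Hes1 by 1.91 (edgeR adjusted p = 0.0472) and Cux1 by 1.77 (edgeR adjusted p = 0.0475). By the unadjusted edgeR p in this comparison, 6 of 11 wound, 4 of 11 inner root sheath and 3 of 13 S100 genes were under 0.05. So were 5 of 24 regulators and 1 of 14 lipid barrier genes. DESeq2 called 5, 1, 1, 3 and 1 genes of these lists in that order. Higher after adrenalectomy were 9, 11, 12, 16 and 8 of their genes, where 7554 of all 15231 genes tested were higher. When corticosterone was given back edgeR called 0 genes of these lists against ADX, as over all genes. An unadjusted p under 0.05 was found there for 8 of 26 spinous and granular, 4 of 14 lipid barrier, 8 of 24 regulator, 5 of 11 inner root sheath, 6 of 13 S100 and 3 of 11 wound genes, and for 19.3% of all genes. DESeq2 called 5, 2, 4, 2, 3 and 2 of them in that order, and 9.53% of all genes. Corneodesmosin (Cdsn), the adhesion protein of the cornified layer, came closest of the spinous and granular genes, at 2.43 (SE 0.43, edgeR adjusted p = 0.0573). Higher against ADX were 20, 11, 14, 2, 2 and 2 genes of the lists in that order, where 7632 of all 15231 genes were. Against Sham edgeR and DESeq2 called 0 genes of these lists. An unadjusted edgeR p under 0.05 was found for 11, 3, 9, 2, 1 and 3 of them, and for 6.09% of all genes. Higher against Sham were 22, 12, 18, 5, 2 and 6, where 7738 of all genes were. Without overlap 18 spinous and granular genes were higher and 2 lower, against 21.5% and 19.1% of all genes. In DP after GR deletion 1 of 25 spinous and granular genes fell, the plakin Ppl, by 1.46 (edgeR adjusted p = 0.0373), and 21 of the 25 were lower, with a median of -1.46, where 10238 of all 23463 genes were lower with a median of 0.17. An unadjusted p under 0.05 was found for 8 of the 25 and 15.2% of all genes, and DESeq2 called 7 of the 25 and 8.01% of all genes. Of 9 inner root sheath and medulla genes there 1 fell and 0 rose, Crym, by 2.99 (edgeR adjusted p = 0.0312). The 23 tested regulators held 1 call in each direction. After adrenalectomy in DP all 25 spinous and granular genes were lower, with a median of -2.77, where 10859 of all 23463 genes were lower with a median of 0.08. The edgeR test called 0 of the 25, against 0.017% of all genes, with 18 at an unadjusted p under 0.05, against 11.7%, and DESeq2 called 3, against 2.5%.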

How the data were processed

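RNA was measured in 8 DP and 10 HFSC libraries, from SMART-Seq v4 cDNA and Nextera XT libraries per the labels' protocols, and such libraries carry no strand mark. The authors deposited an estimated count for each DP transcript; Salmon and mm10 are named in the submitters' processing notes. For HFSC the authors deposited whole-number counts per gene, and per the file headers featureCounts 1.6.1 counted reads in exons with a mapping quality of 30 or more, ignoring strand. The submitters' processing notes also name Trim Galore 0.4.1, STAR 2.5.3 and DESeq2 1.22.2.

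The 134967 DP transcripts were summed to 52958 gene symbols with GENCODE M21 (GRCm38, which is mm10) and rounded; 150 transcripts, with at most 0.0752% of a library's counts, found no match. In 2 HFSC files 27 gene names that had turned into dates were restored from the coordinates beside them. Reads of overlapping genes and of both strands cannot be told apart. HFSC counts from 1 to 20 were even numbers in 66.2% to 73.7% of genes, so counting intervals and floors, which cover counting error only, may be too narrow there.

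All groups of a cell type entered 1 fit in edgeR 4.0.16 (R 4.3.3; TMM, default filter on low counts, quasi-likelihood test), with Benjamini-Hochberg adjustment over the 23463 DP and 15231 HFSC genes tested and a threshold of 0.05. CPM here refers to library sizes after TMM scaling. The biological coefficient of variation was 38.7% for HFSC and 53.97% for DP. Standard errors follow from the F statistic, and the scripts were tested on simulated counts. With 2 libraries against 2, an exact permutation test of a single value cannot go below p = 0.333 (two-sided), so none is given.

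The members and lists were chosen with earlier results of these data known. Full values are given for genes past the threshold, up to 4 with the smallest p-values per comparison, the 3 most abundant tested genes of each role, and Lor, Ivl, Flg, Cst6, Tgm1 and Tgm3. The regulators called in DP are not reported here by name. Alternatives were median-of-ratios scaling, DESeq2 1.42.0, testing every gene with a count, fitting only the groups compared, a block for the replicate number, Sprr2, Lce1 and Lce3 counts summed by family, and leaving out each library, in which case a remaining single library borrowed its spread from the other groups.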

Additional observations from a re-analysis of the deposited data

Results flagged for a closer look

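The direction after dermal GR deletion was opposite in the cell types for 4 envelope genes, in every library against every control library. They were picked for this lack of overlap, which 20% of all genes tested showed downward in DP and 19.3% upward in HFSC. The share of all genes with both was not counted. This difference between DP and HFSC was not tested, because DP reads were counted per transcript and HFSC reads per gene. DP libraries also held epithelial RNA. The 10 basal and follicle keratinocyte markers summed there to 1388 and 408 CPM in Control and to 715 and 24.0 CPM in GR KO. The part of this RNA in the DP values was not tested. For Sprr1a the log2 fold change was -5.72 in DP and 2.27 in HFSC. For Cst6 it was -6.16 in DP and 1.84 in HFSC. For Sprr4 it was -7.37 in DP and 1.70 in HFSC, and for Ivl it was -2.52 in DP and 1.52 in HFSC. Of these, Cst6 passed edgeR's test in both cell types, Sprr4 in DP alone, Sprr1a in HFSC alone and Ivl in neither. Adrenalectomy gave the same kind of split for Sprr1a, with a log2 fold change of -1.86 in DP and 1.52 in HFSC, where the DP value did not pass and the difference was again not tested.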

How the results depend on the processing

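Median-of-ratios scaling and summing the Sprr2, Lce1 and Lce3 counts left every count of called envelope genes as it was, and no single gene with its own statistics changed direction under any alternative: 227 such values kept their side of the threshold, 37 passed where they had not and 26 no longer passed. Without the filter on low counts edgeR called 4 of the envelope genes (in place of 0) for ADX in DP, 10 (in place of 3) for GR KO in DP, 5 (3) for ADX in HFSC, 2 (0) for ADX+CORT against ADX, 3 (0) for ADX+CORT against Sham, 8 (3) for GR KO in HFSC and 5 (0) for the difference between effects in DP. DESeq2 called 2, 8, 4, 2, 2, 7 and 4 in the same order. Only the groups compared gave 1 for GR KO in DP (Lor). Leaving out 1 library in turn gave 2 to 4 for GR KO in DP, 0 to 3 for ADX in HFSC, 0 to 2 for ADX+CORT against ADX, 1 to 2 for GR KO in HFSC, 0 to 2 for the difference, and 0 in each case for ADX in DP and ADX+CORT against Sham. The cause was not tested. Over all genes the count of calls ranged over the alternatives from 0 to 894, 19 to 1456, 0 to 888, 0 to 1326, 0 to 184, 5 to 840 and 3 to 1305, again in that order. Depth limits low genes: in DP no LCE gene but Lce1m passed 3.49 CPM in any library.

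Replicate numbers are shared between groups by label only. With them as a replicate block, edgeR called 5 envelope genes for GR KO in DP, 0 for ADX in HFSC (adjusted p of 0.0558 for Cst6, 0.0610 for Sprr1a and 0.0558 for Sprr4) and 1, Sprr4, for the difference in DP; it moved no other count. Same-numbered libraries deviated from their group means with correlations of -0.19 (ADX) and 0.29 (GR KO) in DP and of -0.04 to 0.09 in HFSC. With the ADX numbers crossed in DP, an alternative chosen after seeing the data, 0 envelope genes were called for ADX.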
